A study of Mus musculus with 6 samples.

Results

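The 10 genes described here encode zinc transporters and metallothioneins of the mouse hippocampus, namely the importers Slc39a12, Slc39a4, Slc39a10 and Slc39a14, the exporters Slc30a1, Slc30a3 and Slc30a10, and the metallothioneins Mt1, Mt2 and Mt3. They were taken by symbol from the 54838 genes of the count table, were chosen by measured values of the same 6 libraries, and each had enough counts to be tested. The 28 genes of the Slc39, Slc30 and Mt families in the table include 18 others, which serve as the wider family. Because the choice used the comparison of genotypes, the genotype differences of the 10 genes are given as a description and not as tests.

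RNA was sequenced from individual hippocampi of 3 wild-type females and 3 FVB/NJ-Tg(ORAI1)Ibd females aged 7 months, 1 library per mouse. The transgenic mice carry a human ORAI1 coding sequence, the pore subunit of a store-operated calcium channel, under the Thy1.2 cassette, which drives expression in neurons. All transgenic mice are of 1 line, and the strain of the wild-type mice is not given in the sources used here. The comparison asks how ORAI1 overexpression in neurons goes together with mRNA levels in the whole hippocampus.

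Zinc is a structural and catalytic cofactor of many proteins, and in the hippocampus a chemically labile pool of it is stored with glutamate in synaptic vesicles, most densely in the mossy fibre terminals of dentate granule cells. Slc39 (ZIP) proteins move zinc into the cytosol, whereas Slc30 (ZnT) proteins move it out of the cytosol, across the plasma membrane or into organelles and vesicles. Metallothioneins are small cysteine-rich proteins that bind zinc and copper through their thiol groups, and the zinc-sensing transcription factor MTF-1 activates Mt1, Mt2 and Slc30a1 when free zinc rises.

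The metallothioneins are shown by their coding sequences because the cysteine codons are what carries their metal binding. Capitals mark each codon for cysteine (TGC or TGT), and the sequences were read from GENCODE M21 transcripts on GRCm38, 5′ to 3′.
Mt1: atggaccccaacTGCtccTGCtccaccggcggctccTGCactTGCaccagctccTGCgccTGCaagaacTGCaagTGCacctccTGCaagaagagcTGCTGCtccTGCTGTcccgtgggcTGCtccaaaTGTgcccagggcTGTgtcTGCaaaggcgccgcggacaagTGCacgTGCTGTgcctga
Mt2: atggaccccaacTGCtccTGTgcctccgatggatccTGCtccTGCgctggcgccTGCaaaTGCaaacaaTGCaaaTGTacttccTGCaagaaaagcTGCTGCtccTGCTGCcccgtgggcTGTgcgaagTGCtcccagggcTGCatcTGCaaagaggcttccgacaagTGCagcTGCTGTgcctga
Mt3: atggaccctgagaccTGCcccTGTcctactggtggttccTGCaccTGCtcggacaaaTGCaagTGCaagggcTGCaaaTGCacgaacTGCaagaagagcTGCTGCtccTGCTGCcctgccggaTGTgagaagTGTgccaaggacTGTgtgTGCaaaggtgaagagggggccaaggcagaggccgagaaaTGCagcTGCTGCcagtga
Each of the 3 coding sequences held 20 cysteine codons, out of 61 codons in Mt1 and in Mt2 and 68 codons in Mt3, and none held a histidine codon. Mt1 and Mt2 were identical at 79.6% of 186 aligned positions. Mt3 was identical to Mt1 at 65.2% and to Mt2 at 67.6% of 207 aligned positions, of which 21 were gaps. The longest stretch that transcripts of any pair of these genes shared was 27 bases, which is shorter than the 76-base reads. The genes lie in a row on the plus strand of chromosome 8 (GRCm38), with Mt3 at chr8:94152607-94154146, Mt2 at chr8:94172664-94173568 and Mt1 at chr8:94179082-94180327. Mt2 ends 5513 bp before Mt1 begins, and Mt3 ends 18517 bp before Mt2.

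The promoter windows of Mt1, Mt2 and Slc30a1 are shown because these genes are textbook targets of MTF-1, whose core binding motif is TGCACNC or TGCGCNC. Windows ran from 250 bases before to 50 bases after the start that RefSeq gives on GRCm38.p6, both strands were searched, and capitals mark matches of either strand.
Mt1, chr8:94178839-94179138, plus strand: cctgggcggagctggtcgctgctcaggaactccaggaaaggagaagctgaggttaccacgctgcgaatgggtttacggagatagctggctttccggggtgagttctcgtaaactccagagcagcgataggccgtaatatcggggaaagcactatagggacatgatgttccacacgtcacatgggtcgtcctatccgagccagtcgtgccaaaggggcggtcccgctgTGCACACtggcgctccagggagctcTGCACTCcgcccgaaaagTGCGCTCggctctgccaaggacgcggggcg
Mt2, chr8:94172368-94172667, plus strand: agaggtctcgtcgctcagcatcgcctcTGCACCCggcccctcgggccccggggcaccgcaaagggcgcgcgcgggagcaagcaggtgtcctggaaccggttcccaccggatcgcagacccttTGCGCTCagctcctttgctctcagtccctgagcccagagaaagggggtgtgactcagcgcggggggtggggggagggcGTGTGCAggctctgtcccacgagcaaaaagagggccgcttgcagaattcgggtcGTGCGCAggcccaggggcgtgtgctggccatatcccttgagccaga
Slc30a1, chr1:191906531-191906830, plus strand: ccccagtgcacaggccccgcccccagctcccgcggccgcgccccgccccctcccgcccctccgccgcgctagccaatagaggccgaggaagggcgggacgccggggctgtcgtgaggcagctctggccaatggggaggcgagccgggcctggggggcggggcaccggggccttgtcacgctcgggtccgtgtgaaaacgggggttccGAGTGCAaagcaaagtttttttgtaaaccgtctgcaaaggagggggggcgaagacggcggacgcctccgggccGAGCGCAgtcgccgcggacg
Matches that overlap were merged and counted as 1 stretch, of which Mt2 held 4, Mt1 held 3 and Slc30a1 held 2. Among all 32851 RefSeq promoter windows of this length, 25.7% held at least 1 such stretch, 6.14% at least 2, 1.31% at least 3 and 0.295% at least 4. Windows were found for 8 of the 10 genes, and of the remaining ones Slc30a10 held 2, one of them made of a pair of overlapping matches, Mt3 held 1, Slc30a3 held 1 in the upstream of its windows and 0 in the other, and Slc39a10 and Slc39a12 held 0. Slc39a4 and Slc39a14 had no window in the table. These matches describe letters in the sequence and were not tested as binding sites.

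Total counts ran from 37414241 to 52497799 per library, and fragments counted on Orai1 were 302 to 376 in the wild-type and 11834 to 14620 in the transgenic libraries. The hippocampal markers Prox1 and Slc17a7 were present throughout, at 84.3 to 109 and 1167 to 1458 CPM, where CPM is the count of a gene per 1000000 counts of the TMM-scaled library total. Of 19087 genes tested with edgeR's quasi-likelihood test, 1355 passed an adjusted p of 0.05, with 591 higher and 764 lower in transgenic hippocampi. Without wild-type mouse 1 or 2 or transgenic mouse 2 or 3 the count was between 77 and 192, against 1149 without transgenic mouse 1 and 1031 without wild-type mouse 3. Across 11191 genes the log2 CPM of wild-type mouse 3 correlated with wild-type mice 1 and 2 at 0.992 and 0.993, below the 0.997 between those 2. It was still nearer to its own group than to transgenic mice 2 and 3, with which it correlated at 0.990 and wild-type mice 1 and 2 at 0.981 to 0.985. Transgenic mouse 1 stood apart from its group, correlating with the other transgenic libraries at 0.986 and 0.988, where those correlated with each other at 0.997. The astrocyte gene Gfap was at 836, 922 and 840 CPM in wild-type mouse 3 and transgenic mice 2 and 3, and at 323, 355 and 386 CPM in wild-type mice 1 and 2 and transgenic mouse 1. Genes of the choroid plexus, the secretory epithelium of the ventricles that adjoins the hippocampus, were lower in the transgenic libraries, with 19 of 20 passing the same test and a median log2 fold change of -2.51. Their summed level was 4088 to 6265 CPM in wild-type and 668 to 946 CPM in transgenic mice, and none was at 0. The largest differences of the list were those of Tmem72 (-4.35), Slc4a5 (-3.69), Ttr (-3.45) and Kcne2 (-3.36). In such bulk samples, fewer cells of a type and less RNA per cell cannot be told apart.

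In wild-type hippocampi the metallothioneins were the most abundant of the 10 genes per length of transcript. In FPKM, which is CPM divided by the gene's exon length in kilobases, they were at 178 ± 33.3 for Mt2, 158 ± 12.9 for Mt3 and 136 ± 20.8 for Mt1 (SD, n = 3 for each gene here). At least 99.0% of the tested genes were at or below each of them. The ranges of the 3 overlapped over mice, but within each wild-type library Mt2 was above Mt3 and Mt3 above Mt1. Slc39a10 at 20.02 ± 1.42, Slc39a12 at 19.1 ± 0.615 and Slc30a3 at 18.7 ± 1.16 FPKM formed the next level, and their ranges also overlapped. Slc30a1 lay below them at 10.5 ± 0.578 FPKM, clear of its neighbours. Slc30a10 at 4.36 ± 0.383 and Slc39a14 at 4.13 ± 0.228 FPKM could not be separated by their spread. Slc39a4 was the least abundant at 0.761 ± 0.290 FPKM, with 22.8% of the tested genes at or under it. The deposited length joins all annotated exons of a gene and was 1246 bp for Mt1, whereas its transcript Mt1-201 has 549 bases, so FPKM depends on which transcripts are made. In CPM, which ignores length, Mt1 and Mt3 led at 169 each and Mt2 followed Slc39a10, at 105 against 122.

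**Figure D1:**
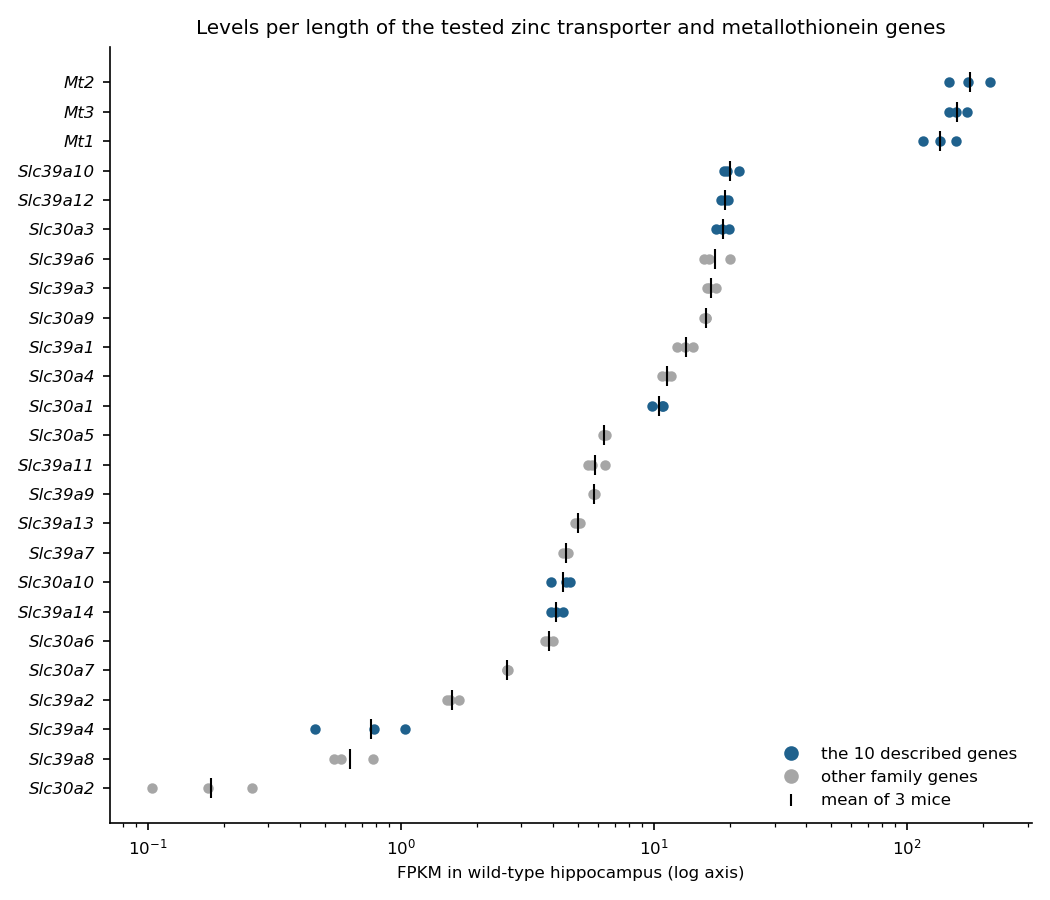
FPKM (log axis) of the 25 tested Slc39, Slc30 and Mt genes in the 3 wild-type mice, with 1 point per mouse and a tick at the mean, blue for the 10 described genes and grey for the others. The 3 metallothioneins lie between 115 and 213 FPKM, no transporter of the 10 exceeds 21.6, and Slc39a4 lies between 0.459 and 1.04.

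Set beside each other, 5 of the 10 genes had no overlap between the genotypes. Slc30a3 and Mt3 were higher in every transgenic mouse, and Slc39a12, Slc39a4 and Slc30a1 were lower. Groups failed to overlap for 34.9% of all tested genes. Of the 10 genes, 3 passed the adjusted p threshold of the edgeR test (1 higher and 2 lower), where 7.10% of all tested genes passed, 3.10% higher and 4.0% lower. These genes were picked with that contrast in view, so the counts are not a result about them. Their median log2 fold change was -0.03, against -0.01 for all tested genes. The number past the threshold was 0 without wild-type mouse 2, 1 without wild-type mouse 1 or transgenic mouse 3, 2 without transgenic mouse 2 and 4 without wild-type mouse 3.

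**Figure D2:**
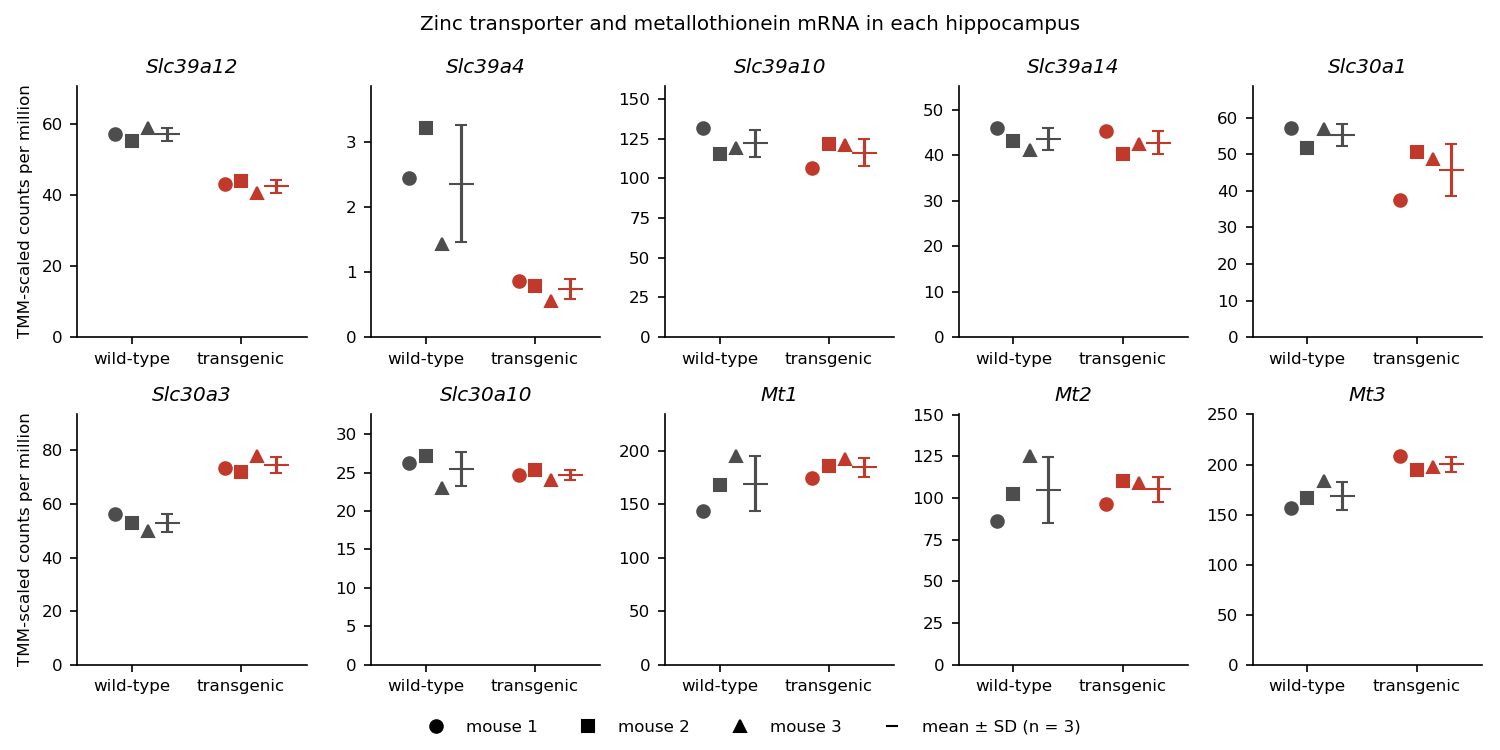
TMM-scaled CPM of the 10 genes in each mouse, with axes starting at 0, grey for wild-type and red for transgenic, symbols for the mouse number within a genotype, and the mean with its SD beside the points (n = 3). Slc39a12, Slc39a4, Slc30a1, Slc30a3 and Mt3 show no overlap between genotypes, and Mt1 and Mt2 spread more among wild-type than among transgenic mice.

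Slc39a12 encodes ZIP12, a plasma membrane zinc importer enriched in brain, and lies at chr2:14388316-14494977. Its level was 57.3, 55.3 and 59.0 CPM in wild-type mice 1 to 3 and 43.1, 43.9 and 40.5 CPM in transgenic mice 1 to 3. All transgenic mice were lower, and the gap of 11.4 CPM between the groups exceeded the range within either group. The log2 fold change was -0.43 (SE 0.05), from a mean of 57.2 ± 1.84 to 42.5 ± 1.76 CPM. Its spread within genotypes was an SD of 0.05 on the log2 scale, smaller than that of most genes, with 14.9% of tested genes at or below it. With the trend of each library on GC content removed through offsets, the log2 fold change was -0.315. Choroid plexus genes moved the same way between the genotypes. Their sum was 6077, 6265 and 4088 CPM in wild-type mice 1 to 3 and 946, 668 and 808 CPM in transgenic mice 1 to 3. The part of the choroid plexus in the difference of Slc39a12 was not tested.

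Slc39a4 encodes ZIP4, the importer of dietary zinc in the intestine, and lies at chr15:76612383-76617384. It was read by few fragments, 128, 136 and 54 in the wild-type and 40, 30 and 21 in the transgenic libraries, and the counting alone gives a coefficient of variation of 21.8% at 21 fragments. In CPM these were 2.45, 3.22 and 1.43 against 0.858, 0.786 and 0.561. Every transgenic mouse was lower, and wild-type mouse 3 was nearest to them. The log2 fold change was -1.68 (SE 0.323), the largest in size of the 10 genes, and it ran from -1.38 without wild-type mouse 2 to -1.925 without wild-type mouse 3. Within genotypes Slc39a4 varied by an SD of 0.47 on the log2 scale, and 92.5% of tested genes varied as much or less. The order of wild-type mice was the same for Slc39a4 and for the summed choroid plexus genes, at 6265 CPM in mouse 2, 6077 in mouse 1 and 4088 in mouse 3, and in transgenic mice both were highest in mouse 1 but lowest in different mice. Whether Slc39a4 mRNA in these samples comes from choroid plexus was not tested.

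**Figure D3:**
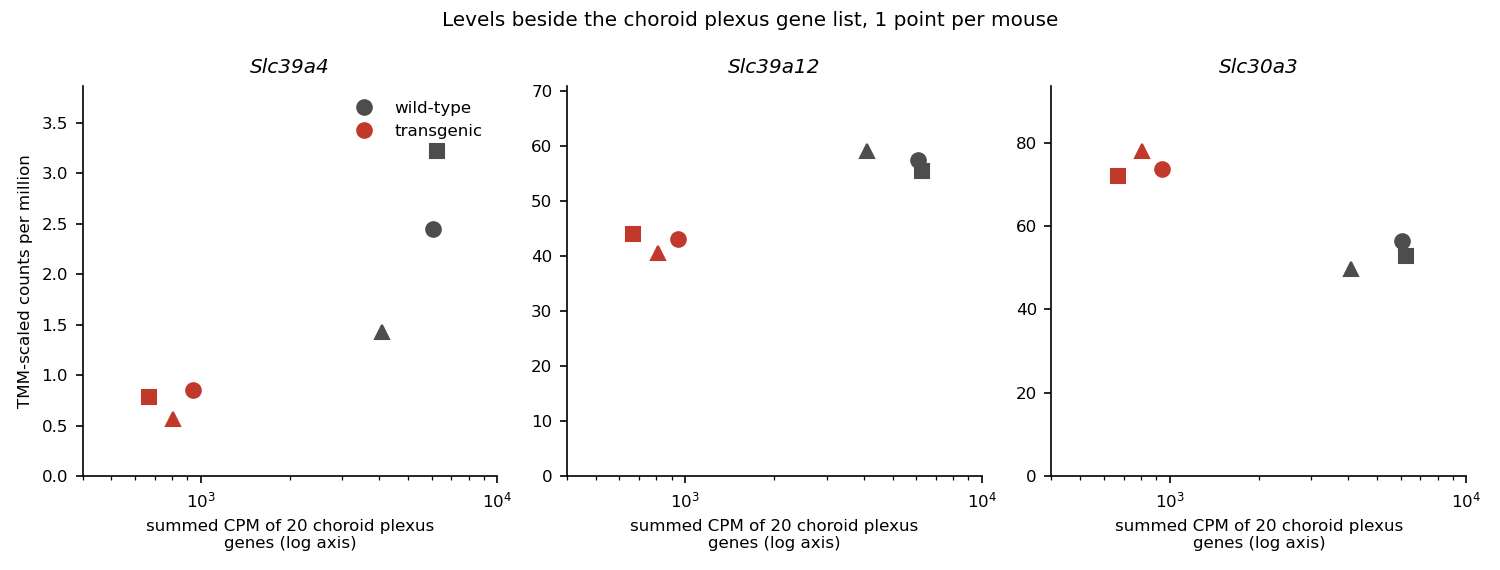
CPM of Slc39a4, Slc39a12 and Slc30a3 against the summed CPM of 20 choroid plexus genes (log axis), 1 point per mouse, grey for wild-type and red for transgenic, with circles, squares and triangles for mice 1, 2 and 3 of a genotype. Transgenic mice lie between 668 and 946 CPM on the horizontal axis and wild-type mice between 4088 and 6265. Among wild-type mice alone, the one with the lowest choroid plexus sum has the lowest Slc39a4 and Slc30a3 and the highest Slc39a12.

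The remaining importers overlapped between genotypes. Slc39a10 encodes ZIP10, a plasma membrane importer, and lies at chr1:46807544-46892852. It was at 132, 115 and 119 CPM in wild-type and 106, 122 and 121 CPM in transgenic mice. Wild-type mouse 1 was the highest library and transgenic mouse 1 the lowest, and the log2 fold change of -0.07 (SE 0.07) changed its sign with GC offsets, to 0.02. A non-coding gene on the same strand, Gm28151, overlaps it with 163 to 290 fragments per library, and fragments that fall on both are not assigned to either in such counting. Slc39a14 encodes ZIP14, which also carries iron and manganese, and lies at chr14:70303469-70351425. Its levels of 46.1, 43.2 and 41.3 CPM in wild-type and 45.5, 40.4 and 42.6 CPM in transgenic mice were interleaved. The log2 fold change was -0.02 (SE 0.06) and changed its sign in 4 of 17 alternatives.

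Among the exporters, Slc30a3 encodes ZnT3, which fills synaptic vesicles of glutamatergic terminals with zinc, and lies at chr5:31086106-31108237. It was at 56.3, 52.9 and 49.8 CPM in wild-type mice and at 73.6, 72.0 and 78.0 CPM in transgenic mice. Every transgenic mouse was higher, and the lowest of them stood 15.7 CPM above the highest wild-type mouse. The log2 fold change was 0.49 (SE 0.06), from 53.0 ± 3.28 to 74.6 ± 3.12 CPM, and it kept between 0.45 and 0.55 with any mouse left out. Its transcripts have 58.6% GC, and with the trend of each library on GC content removed (GC offsets) it was 0.37. Of 10 genes of dentate granule cells and pyramidal neurons, 1 passed the edgeR test, against 7.10% of all tested genes. It was Slc17a7, the vesicular glutamate transporter VGLUT1, which rose by 0.26 on the log2 scale (adjusted p = 0.0356). That call was lost with GC offsets, where the difference was 0.15 (adjusted p = 0.108), and without any one mouse other than transgenic mouse 1, at an adjusted p of 0.0543 to 0.162. C1ql2, a synaptic protein of dentate granule cells, had a larger difference of 0.74 that did not pass (adjusted p = 0.224), nor did Nrgn at 0.24 or Grik4 at 0.21, and DESeq2 called 3 of the list higher. The median of that list was 0.03, and its summed level was 6119 to 6280 CPM in wild-type and 6439 to 7161 CPM in transgenic mice. The dentate marker Prox1 was at 95.6, 97.7 and 93.3 against 97.2, 84.3 and 109 CPM and overlapped. The share of these neurons in the difference of Slc30a3 was not tested.

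Slc30a1 encodes ZnT1, which exports zinc across the plasma membrane, and lies at chr1:191906767-191913247. It was at 57.2, 51.7 and 56.7 CPM in wild-type and at 37.5, 50.7 and 48.8 CPM in transgenic mice. The groups did not overlap, but only 1.04 CPM separated wild-type mouse 2 from transgenic mouse 2, and transgenic mouse 1 was far below the rest. The log2 fold change was -0.28 (SE 0.11) with all mice and -0.15 without transgenic mouse 1. Slc30a10, which encodes the manganese exporter ZnT10 and lies at chr1:185454848-185468762, was at 26.2, 27.2 and 22.9 CPM in wild-type and 24.6, 25.3 and 24.1 CPM in transgenic mice. All transgenic values fell inside the wild-type range, with a log2 fold change of -0.045 (SE 0.07). A stretch of 43 bases in common with Slc30a8 was the longest that any of the 10 genes shared with another gene of these families, which is shorter than a read.

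Mt3, the metallothionein that is most characteristic of brain, was at 156, 167 and 184 CPM in wild-type and at 209, 194 and 197 CPM in transgenic mice. Each transgenic mouse was above each wild-type mouse, with 10.7 CPM between wild-type mouse 3 and transgenic mouse 2. The log2 fold change was 0.25 (SE 0.07), and it was 0.12 with GC offsets and 0.16 with gene length offsets. Its GC content was 58.4%, close to that of Slc30a3.

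Mt1 and Mt2, the forms made in most tissues, are induced by metals, glucocorticoids and injury. Mt1 was at 144, 168 and 196 CPM in wild-type and at 175, 186 and 193 CPM in transgenic mice. The transgenic mice lay inside the wild-type range, and the log2 fold change of 0.13 (SE 0.10) moved between 0.035 without wild-type mouse 1 and 0.25 without wild-type mouse 3. Mt2 was at 86.4, 103 and 125 CPM against 96.6, 110 and 109 CPM. Here too wild-type mice 1 and 3 were the lowest and highest libraries, and the log2 fold change of 0.01 (SE 0.13) changed its sign in 6 of 17 alternatives. Mt1 and Mt2 deviated together, by -0.22 and -0.26 from the mean log2 CPM of the genotype in wild-type mouse 1, by 0.22 and 0.28 in wild-type mouse 3 and by -0.08 and -0.12 in transgenic mouse 1. Mt3 deviated by -0.11 and 0.12 in wild-type mice 1 and 3, in the same directions, and by 0.06 in transgenic mouse 1, in the opposite direction.

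The number of Mt1 fragments per Mt2 fragment was 1.66, 1.64 and 1.56 in wild-type and 1.81, 1.69 and 1.77 in transgenic mice. This ratio varied less from mouse to mouse than either gene. Every transgenic mouse was above every wild-type mouse, but wild-type mouse 1 at 1.664 was close to transgenic mouse 2 at 1.692. Counting alone gives a coefficient of variation of 1.19% for Mt1 and 1.56% for Mt2 at their lowest counts. Groups failed to overlap for 34.9% of all tested genes, and the ratio was not tested. The 3 metallothioneins together took 0.0385%, 0.0438% and 0.0506% of all counts in wild-type mice and 0.0476%, 0.0491% and 0.04998% in transgenic mice, so wild-type mice spanned the transgenic range.

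Astrocytes are the main source of Mt1 and Mt2 in brain, and astrocyte genes were set beside them. Gfap, a filament protein that increases in reactive astrocytes, deviated from the genotype's mean by -0.50, -0.37 and 0.87 on the log2 scale in wild-type mice 1 to 3 and by -0.79, 0.46 and 0.33 in transgenic mice. The water channel Aqp4 deviated by -0.14, -0.24 and 0.38 and by -0.50, 0.33 and 0.18. Mt1 and Mt2 were lowest in mouse 1 of each genotype and, among wild-type mice, highest in mouse 3, a pattern that 7 of the 12 astrocyte genes and 2280 of all 19087 tested genes (11.9%) shared. It was not particular to astrocyte genes, since 4 of 8 endothelial genes had it too, and Aqp4, Gja1, Fgfr3, Slc4a4 and Aldoc of the astrocyte list did not. This pattern was chosen after the values were seen and was given no test. Aldh1l1, a pan-astrocyte enzyme, deviated by at most 0.06 in size in any mouse, less than Mt1 or Mt2 did in wild-type mice 1 and 3. Of 12 astrocyte genes, 1 passed the edgeR test between genotypes, against 7.10% of all tested genes. It was the bicarbonate transporter Slc4a4, which fell by 0.28 (adjusted p = 0.0349). That call was lost with GC offsets (-0.23, adjusted p = 0.0760), with gene length offsets (-0.19, adjusted p = 0.0856) and without any one of wild-type mice 1 and 2 and transgenic mice 2 and 3, at an adjusted p of 0.119 to 0.153. Gfap had a larger difference of 0.51 (SE 0.431) that did not pass (adjusted p = 0.490), followed by S100b at 0.19 and Sox9 at -0.14, neither of which passed. The list's median was -0.01, and the summed level was 5497 to 7326 CPM in wild-type and 5387 to 6616 CPM in transgenic mice. The part of astrocyte state in the spread of Mt1 and Mt2 was not tested.

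**Figure D4:**
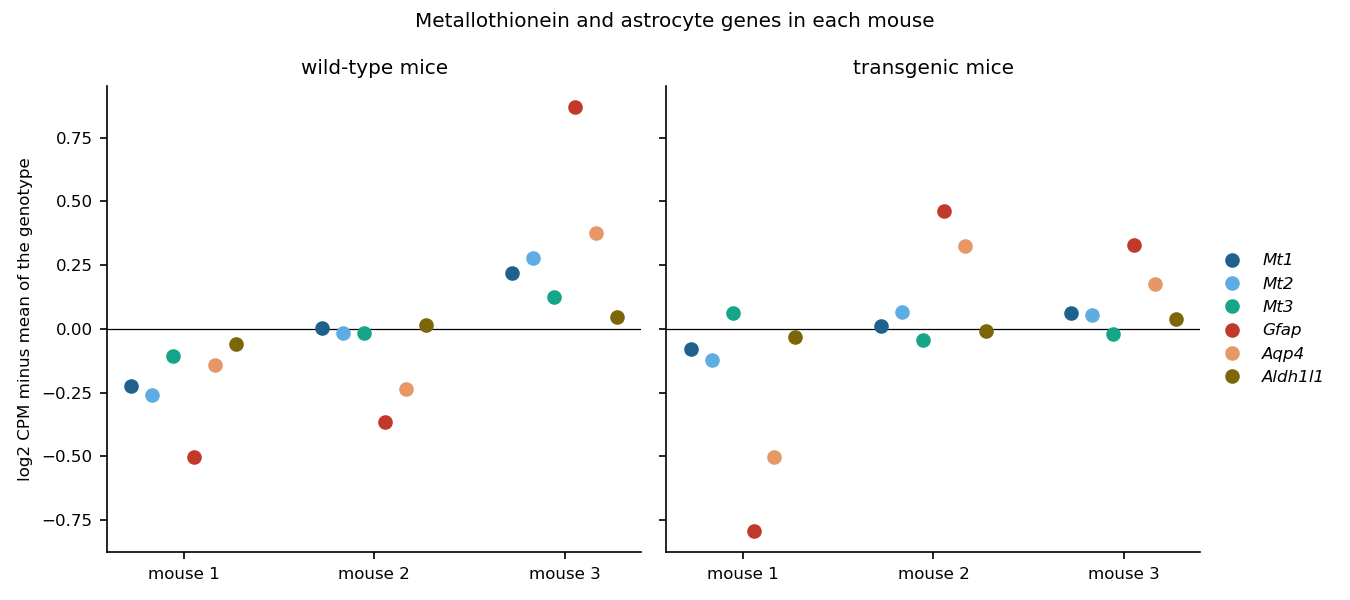
Log2 CPM of Mt1, Mt2, Mt3 and the astrocyte genes Gfap, Aqp4 and Aldh1l1 in each mouse, minus the mean of the 3 mice of its genotype, wild-type on the left and transgenic on the right. Mt1 and Mt2 are below 0 where Gfap is lowest, in wild-type mouse 1 and transgenic mouse 1, Gfap spans -0.79 to 0.87, and Aldh1l1 stays within 0.06 of 0.

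Steroid signalling, which induces Mt1 and Mt2, was followed by 10 glucocorticoid response genes. Among them 1 passed the edgeR test, against 7.10% of all tested genes, and the median of the list was -0.10. It was Tsc22d3, which encodes the glucocorticoid-induced leucine zipper and fell by 0.37 on the log2 scale (adjusted p = 0.0381). That call was lost with GC offsets (-0.38, adjusted p = 0.0504) and without any one mouse other than transgenic mouse 1, at an adjusted p of 0.0712 to 0.153. Sgk1, a steroid-induced kinase, had a larger difference of -0.44 that did not pass (adjusted p = 0.126), nor did Zbtb16 at -0.34 or Nfkbia at -0.33, and DESeq2 called 3 of the list lower. Of 8 endothelial genes Cldn5 rose by 0.66 (adjusted p = 0.0430) and Slco1c1 fell by 0.30 (adjusted p = 0.0301), where 3.10% of all tested genes rose and 4.0% fell by the edgeR test. The list median was 0.08, and Ly6c1 at 0.24 and Pecam1 at 0.09 did not pass. Both calls were lost without any one of wild-type mice 1 and 2 and transgenic mice 2 and 3, at an adjusted p of 0.0851 to 0.147 for Cldn5 and 0.0913 to 0.146 for Slco1c1. With GC offsets Cldn5 was at 0.51 (adjusted p = 0.134) and Slco1c1 at -0.19 (adjusted p = 0.136), and with gene length offsets Cldn5 was at 0.58 (adjusted p = 0.0627). None of 8 meningeal fibroblast genes passed the edgeR test, where 1 had an unadjusted p under 0.05 and DESeq2 and limma-voom called 0. The differences of largest size were those of Igf2 at -1.20 (adjusted p = 0.0848), Col3a1 at 0.50 (adjusted p = 0.652), Ogn at -0.33 and Col1a1 at 0.28. Their summed level was 183 to 269 CPM in wild-type and 116 to 344 CPM in transgenic mice.

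The 18 other family genes gave a wider view of zinc transport, and 15 of them had enough counts for a test. In these, 1 gene was higher and 0 were lower by edgeR's adjusted p, against 3.10% and 4.0% of all tested genes, with 2 higher and 3 lower at an unadjusted p under 0.05. DESeq2 called 1 higher and 1 lower, the latter being the vesicular exporter Slc30a4 (-0.23, adjusted p = 0.0391), and limma-voom called 1 higher and 0 lower. The median log2 fold change was -0.05. The gene that passed was Slc39a2, which encodes the importer ZIP2, at 5.89, 5.24 and 5.42 CPM in wild-type and 9.91, 7.21 and 8.81 CPM in transgenic mice. Every transgenic mouse was higher, and Slc39a2 rose by 0.65 (SE 0.132, adjusted p = 0.0354 in edgeR). The difference was between 0.54 and 0.79 with any mouse left out, but the adjusted p was above the threshold, at 0.0527 to 0.135, without any one of wild-type mice 1, 2 and 3 and transgenic mice 1 and 3. With GC offsets the difference of Slc39a2 was 0.64 and the adjusted p 0.0548. Slc39a2 overlaps Mettl17 on the same strand, which had 1195 to 1825 fragments per library, so that its count is uncertain. By mean FPKM the most abundant of the 15 was the importer Slc39a6 at 17.4 ± 2.22 FPKM in wild-type mice, with a log2 fold change of -0.05 (SE 0.10, adjusted p = 0.770). Slc39a3 at 16.8 ± 0.722 and Slc30a9 at 16.03 ± 0.152 FPKM lay within its spread, and both were above it in wild-type mouse 2, so that these 3 have no settled order. The 3 that were not tested had few fragments, Slc39a5 with 2 to 16 per library, Slc30a8 with 0 to 5 and Mt4 with 1 fragment in 1 of 6 libraries, and a count of 0 allows up to 3. Mt4, known from stratified epithelia, adjoins Mt3 on chromosome 8, 13575 bp away. Slc39a1 shares 321 bases with the pseudogene Slc39a1-ps, so its counts of 29.3 to 37.8 CPM are uncertain.

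**Figure D5:**
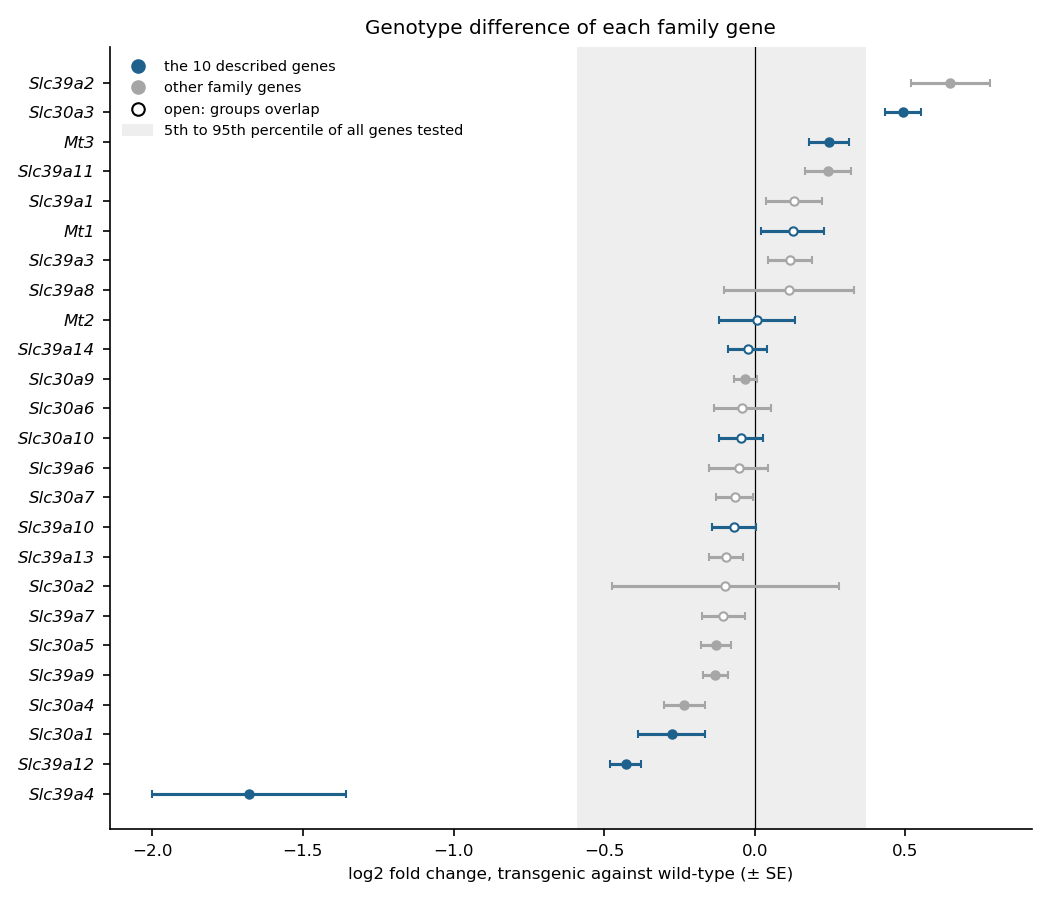
Log2 fold change of transgenic against wild-type mice with its SE for the 25 tested family genes, blue for the 10 described genes and grey for the others, with open symbols where the groups overlap and a grey band from the 5th to the 95th percentile of all 19087 tested genes (-0.59 to 0.37). Slc39a4 at -1.68 lies below the band, Slc30a3 at 0.49 and Slc39a2 at 0.65 lie above it, and the other 22 genes lie within.

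Of 16 genes that sense or carry zinc, copper, iron and manganese, 1 rose and 2 fell by edgeR's test, with a list median of -0.005. Among all tested genes 3.10% rose and 4.0% fell. Slc31a1, the plasma membrane copper importer CTR1, was at 43.1, 43.3 and 36.4 CPM in wild-type and 21.3, 26.4 and 23.4 CPM in transgenic mice. It fell by 0.79 (SE 0.10, adjusted p = 0.0112), and the adjusted p was 0.0641 without wild-type mouse 1, 0.0528 without wild-type mouse 2 and 0.0539 without transgenic mouse 3. Atp7a, a copper-transporting ATPase, was at 11.3, 10.3 and 9.04 CPM against 6.15, 5.82 and 6.22 CPM. It fell by 0.75 (SE 0.105, adjusted p = 0.0155), with an adjusted p of 0.0858 and 0.0872 without wild-type mice 1 and 2 and of 0.0559 and 0.0721 without transgenic mice 2 and 3. In both copper transporters wild-type mouse 3 was the lowest of its group, as it was for the choroid plexus sum. Among transgenic mice that sum was highest in mouse 1, where Slc31a1 was lowest. It was lowest in mouse 2, where Slc31a1 was highest and Atp7a lowest. The part of that tissue was not tested. Atp13a2, a lysosomal ATPase, lay at 165 to 168 CPM in wild-type and 185 to 192 CPM in transgenic mice. It rose by 0.18 (SE 0.04, adjusted p = 0.0395), which became 0.02 (adjusted p = 0.798) with GC offsets. Leaving out any mouse but transgenic mouse 1 also ended that call, at an adjusted p of 0.0610 to 0.161. Sod1, the copper and zinc superoxide dismutase, had the highest mean of the list at 36.1 ± 1.16 FPKM in wild-type mice and differed by 0.09 (SE 0.05, adjusted p = 0.286). The copper chaperone Atox1 was at 35.6 ± 1.97 FPKM, within that spread and above Sod1 in wild-type mouse 3. Mtf1, which encodes the zinc-sensing factor itself, was at 36.4 to 38.3 CPM in wild-type and 36.3 to 39.7 CPM in transgenic mice, with a log2 fold change of 0.03 (SE 0.05, adjusted p = 0.792).

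For the 3 genes with the widest range over libraries, the genes of most similar profile were sought by the root mean square difference of log2 CPM, each centred on its own mean, over 6 libraries. Closest to Slc39a4 were Olfr1507 (0.136), Olfr1508 (0.157), Prrg4 (0.179), Cndp1 (0.181) and Scube3 (0.194), and Olfr1507 was at 1.83, 2.54 and 1.29 CPM in wild-type and 0.686, 0.655 and 0.561 CPM in transgenic mice. Closest to Slc30a3 were AU022754 (0.050), Zfp213 (0.055), Nrl (0.057), Gm21992 (0.057) and Vwa3b (0.057). Slc30a1 had closer neighbours, namely Tmem30a (0.020), Selenot (0.026), Fmr1 (0.027), Mier3 (0.029) and Fbxo30 (0.029). Tmem30a, a subunit of phospholipid flippases, was at 451, 408 and 436 CPM in wild-type and 298, 389 and 385 CPM in transgenic mice, with transgenic mouse 1 lowest, as in Slc30a1. These neighbours are the smallest differences out of 19087 genes and describe these 6 libraries alone.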

How the data were processed

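RNA from 3 wild-type and 3 FVB/NJ-Tg(ORAI1)Ibd hippocampi was sequenced, 1 library per mouse. The authors filtered reads with Trimmomatic, aligned them to mm10 with STAR and deposited counts of fragments per gene from featureCounts v1.5.0-p1, not normalized, with the exon length of each gene in bp. Per the file headers, counting was stranded (setting 2), on Ensembl release 95, with alignments below a mapping quality of 3 left out. All 6 columns of counts were matched to samples by name.

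Genes were kept by filterByExpr (minimum count 10), scaled by TMM and compared with edgeR's quasi-likelihood test without covariates (R 4.3.3, edgeR 4.0.16), with Benjamini-Hochberg adjustment over 19087 genes and a threshold of 0.05. The test was also run with limma 3.58.1 (voom) and DESeq2 1.42.0, and the fits were tested on simulated data. NOISeq, which the study used, was not repeated. CPM used the scaled totals, log2 CPM had a prior count of 2, and FPKM divided CPM by the deposited length. Total counts of 37414241 to 52497799 limit the precision of genes with few fragments. For 3 mice against 3, the smallest p of an exact permutation test, two-sided, is 0.1.

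The 10 genes and all gene lists were chosen with earlier results of these data known. Named were the 10 genes, the genes of the wider family and of the metal handling list with an adjusted p under 0.05 and the most abundant of each, up to 4 of each marker list by size of the difference, and 5 nearest profiles for each of 3 genes. Prox1, Mtf1, Orai1, Slc30a4, Slc39a1, Slc39a3, Slc30a9, Atox1, Aqp4, Aldh1l1, Gja1, Fgfr3, Aldoc and the genes not tested were added for context after their values were seen. Promoter windows came from RefSeq (GRCm38.p6), and coding sequences, GC content and positions from GENCODE M21, in which 54809 of 54838 genes were found. Alternatives were other scalings, filters and tests, GC and length offsets (loess span 0.5), a replicate block, and each mouse left out.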

Additional observations from a re-analysis of the deposited data

How the results depend on the processing

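Over 17 alternatives the log2 fold changes of the 10 genes stayed within the spread between mice in 163 of 170 values and moved beyond it in 7, those of Slc39a12, Slc30a3 and Mt3 with GC offsets (with and without the replicate block) and of Slc39a14 with gene length offsets (0.066). The sign turned for Mt2 in 6, Slc39a14 in 4, Slc39a10 in 3 and Slc30a10 in 1 of the 17, and for none of the other genes. Scaling by DESeq2's size factors, library totals or the upper quartile left the number of genes called, of other family genes, of metal handling genes and of choroid plexus genes within 1.5 times, and the median of all genes moved by less than 0.1. The cause of the shifts below was not tested.

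Genes called numbered 1355, against 2230 with DESeq2, 394 with GC offsets, 855 with gene length offsets and 77 to 1149 with each mouse left out. Other zinc family genes called numbered 1, against 2 with DESeq2, 0 with GC offsets and 0 to 1 with each mouse left out. Metal handling genes called numbered 3, against 0 to 3 with each mouse left out, and choroid plexus genes 19, against 16 to 19.

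The sources used here do not say whether same-numbered mice were paired. Deviations of same-numbered mice correlated at 0.399, -0.357 and 0.388, with a mean of 0.143 against -0.092 for mice of different numbers. So few values cannot settle whether there was a pairing. With the replicate block 738 of all 19087 tested genes were called, and with the block and GC offsets 411. Of the 10 genes described, 3 and 1 passed the threshold. These genes were chosen by the same contrast, so those counts are not a test of them. The block left the calls of other family genes at 1 and of choroid plexus genes at 19, and metal handling genes at 2. It ended the calls of Slc17a7 (adjusted p = 0.0675), Slc4a4 (0.0540), Cldn5 (0.0559), Tsc22d3 (0.0622) and Atp13a2 (0.0747). Genes with few fragments, such as Slc39a4, are limited by depth.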
